A study of Rattus norvegicus with 20 samples.

Results

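Heat shock proteins and chaperones keep other proteins folded, and the genes described here are Hspb1, Hspe1, Hspd1, Hsph1, Hspa5 and Hspa8 in rat dorsal root ganglia after sciatic nerve injury. Members were all probe sets that the platform's probe table gives to 1 of these genes alone. That rule gave 13 probe sets of 5 of the 6 genes, out of 8740 probe sets tested and 4736 genes with a probe set of their own. Hspb1 had 4 probe sets, Hspa5 had 3, and Hspe1, Hspd1 and Hsph1 had 2 each. Hspa8, the constitutive cytosolic chaperone, had none alone and is not described, since its 2 probe sets are shared with Haus8l2. A further Hspb1 probe set is shared with Asb2 and was left out.

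The dorsal root ganglion holds the cell bodies of sensory neurons, and RNA from 20 samples of it was hybridised to Affymetrix rat arrays, 1 array a sample. The nerve was loosely tied in chronic constriction injury (CCI), a model of neuropathic pain, or injured by the Seltzer procedure, which is usually a partial ligation and which the labels call a transection. The CCI groups were 14 days (n = 3) and 21 days (n = 3) after surgery, the Seltzer groups 14 (n = 2), 21 (n = 3) and 50 days (n = 2), and the groups of sham-operated rats 14 (n = 2), 21 (n = 3) and 50 days (n = 2). All ganglia came from the operated side, and the 21-day CCI arrays are titled CC1, which was read as CCI from their descriptions. The labels used here leave strain, sex, age, the ganglia taken and any pooling of animals unstated, and for 3 CCI samples (14-day replicates 2 and 3 and 21-day replicate 1) they call the replicate number a lot batch. The labels do not say that replicates were separate animals, so p-values measure the spread between these samples, which may be technical. In whole ganglia, a change in the share of a cell type and a change in RNA per cell cannot be told apart.

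Hspb1 (Hsp27) is a small heat shock protein that forms large oligomers, holds unfolding proteins without using ATP, and binds actin filaments. In sensory neurons it is known to rise after axotomy and to favour survival and axon growth. Hspd1 (Hsp60) and Hspe1 (Hsp10) form the folding chamber and the lid of the mitochondrial chaperonin. Hsph1 (Hsp105, Hsp110 family) exchanges the nucleotide of Hsp70 proteins, and Hspa5 (BiP) is the Hsp70 protein of the endoplasmic reticulum, where it also senses unfolded proteins. Heat shock factor 1 switches on most of these genes through heat shock elements, which are inverted repeats of GAA, while Hspa5 is driven by the unfolded protein response through the endoplasmic reticulum stress element.

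The promoters show which of these genes carry such an element, and they are given as the 250 bases before each gene's start in RefSeq on GRCr8, 5′ to 3′ on the gene's strand. In capitals are the heat shock elements GAANNTTC or TTCNNGAA, run together where they overlap, and in Hspa5 the endoplasmic reticulum stress element, which is CCAAT and CCACG with 9 bases of any kind between. Windows are Hspb1 at chr12:26432302-26432551 (minus strand), Hspe1 at chr9:64084077-64084326 (plus strand), Hsph1 at chr12:10427118-10427367 (plus strand) and Hspa5 at chr3:38452766-38453015 (plus strand).
Hspb1: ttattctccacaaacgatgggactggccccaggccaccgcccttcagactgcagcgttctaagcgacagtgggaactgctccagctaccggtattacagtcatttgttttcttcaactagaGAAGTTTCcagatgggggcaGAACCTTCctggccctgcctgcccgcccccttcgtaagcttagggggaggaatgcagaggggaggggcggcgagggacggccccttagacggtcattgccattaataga
Hspe1: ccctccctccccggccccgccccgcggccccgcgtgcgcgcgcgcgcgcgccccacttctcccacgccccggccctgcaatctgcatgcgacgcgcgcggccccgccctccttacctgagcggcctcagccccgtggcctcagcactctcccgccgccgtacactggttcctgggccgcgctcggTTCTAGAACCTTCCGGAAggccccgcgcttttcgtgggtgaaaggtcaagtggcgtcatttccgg
Hsph1: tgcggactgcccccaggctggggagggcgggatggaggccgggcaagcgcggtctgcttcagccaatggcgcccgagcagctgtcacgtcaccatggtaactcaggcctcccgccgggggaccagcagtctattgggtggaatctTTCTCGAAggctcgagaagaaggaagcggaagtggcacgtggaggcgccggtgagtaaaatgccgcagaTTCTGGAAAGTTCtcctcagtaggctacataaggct
Hspa5: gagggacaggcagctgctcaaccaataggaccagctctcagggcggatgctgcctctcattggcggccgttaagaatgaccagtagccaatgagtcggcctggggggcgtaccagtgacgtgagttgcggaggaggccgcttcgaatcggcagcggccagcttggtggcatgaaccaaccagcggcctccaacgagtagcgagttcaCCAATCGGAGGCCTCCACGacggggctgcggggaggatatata
Hspb1 held 2 separate inverted pairs, at -129 to -122 and at -109 to -102 from the start. Hspe1 held overlapping pairs at -65 to -48, and Hsph1 held 1 pair at -105 to -98 and an overlapping run at -36 to -24. Hspd1 lies head to head with Hspe1: its window at chr9:64084038-64084287 (minus strand) shares 211 bases with that of Hspe1 and holds the same run, at -242 to -225. A pair of either form, searched on both strands, was found in 13.5% of 33469 rat promoter windows of this length, and a run of 3 units, GAA and TTC in turn with NN between (so that each run also holds 2 overlapping pairs), in 0.663%. No pair was found in the Hspa5 window, which held the stress element at -43 to -25, as 0.0657% of windows did. These matches describe letters in a window and do not show that a factor binds there.

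Values are the deposited intensities on a linear scale, and levels of different probe sets are not compared. Each array's background level was taken from its own negative values, as the 95th percentile of their absolute size, and a probe set had to exceed it to be called above background. The level was 169 to 326 on 17 arrays, 499 on replicate 1 of 21-day CCI, and 766 and 599 on the Seltzer arrays of 50 days. The 50-day Seltzer arrays also had a GAPDH 3′ to middle signal ratio of 8.89 and 5.10, against 2.84 and 2.85 on the 50-day sham arrays and 0.998 to 2.04 on all others, and were kept out of the means over days. All 11 sensory neuron markers measured were above background on at least 1 array. Skeletal muscle transcripts were also present: the summed intensity of 12 muscle markers ran from 11810 to 13340 in 14-day CCI, 7976 to 8023 in 14-day Seltzer and 5743 to 6575 in 14-day sham arrays, and from 1730 to 2607, 3822 to 4496 and 5582 to 6130 in the CCI, Seltzer and sham arrays of 21 days. The injury genes Atf3, Npy, Gal and Gap43 rose in both models, Atf3 by 2.28 in CCI and 1.71 in Seltzer ganglia on the log2 scale (limma, adjusted p = 2.06e-07 and 1.62e-05).

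Hspb1 rose after CCI. Its brightest probe set, rc_AA998683_g_at, was above background on all 20 arrays. At 14 days it read 4791, 4406 and 3869 in CCI ganglia, 2829 and 2109.5 in Seltzer ganglia, and 1742 and 2064 in sham ganglia. Every CCI array lay above every Seltzer array, and every Seltzer array above every sham array. At 21 days it read 3255, 4965 and 4828 in CCI ganglia, 2539.7, 3184.5 and 3676 in Seltzer ganglia, and 2908, 2884.5 and 2840.1 in sham ganglia. Every CCI array again lay above sham, while the Seltzer arrays lay on both sides of it and 1 of them above the lowest CCI array. Of all probe sets, 18.1% had every 14-day CCI array above every sham array, 17.9% every 14-day Seltzer array above sham, and 6.57% every 21-day CCI array above sham. At 50 days the values were 1936 and 2003 in Seltzer ganglia and 3078 and 2811 in sham ganglia, with both Seltzer arrays below both sham arrays, as for 37.2% of all probe sets (33.4% had both above).

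**Figure D1:**
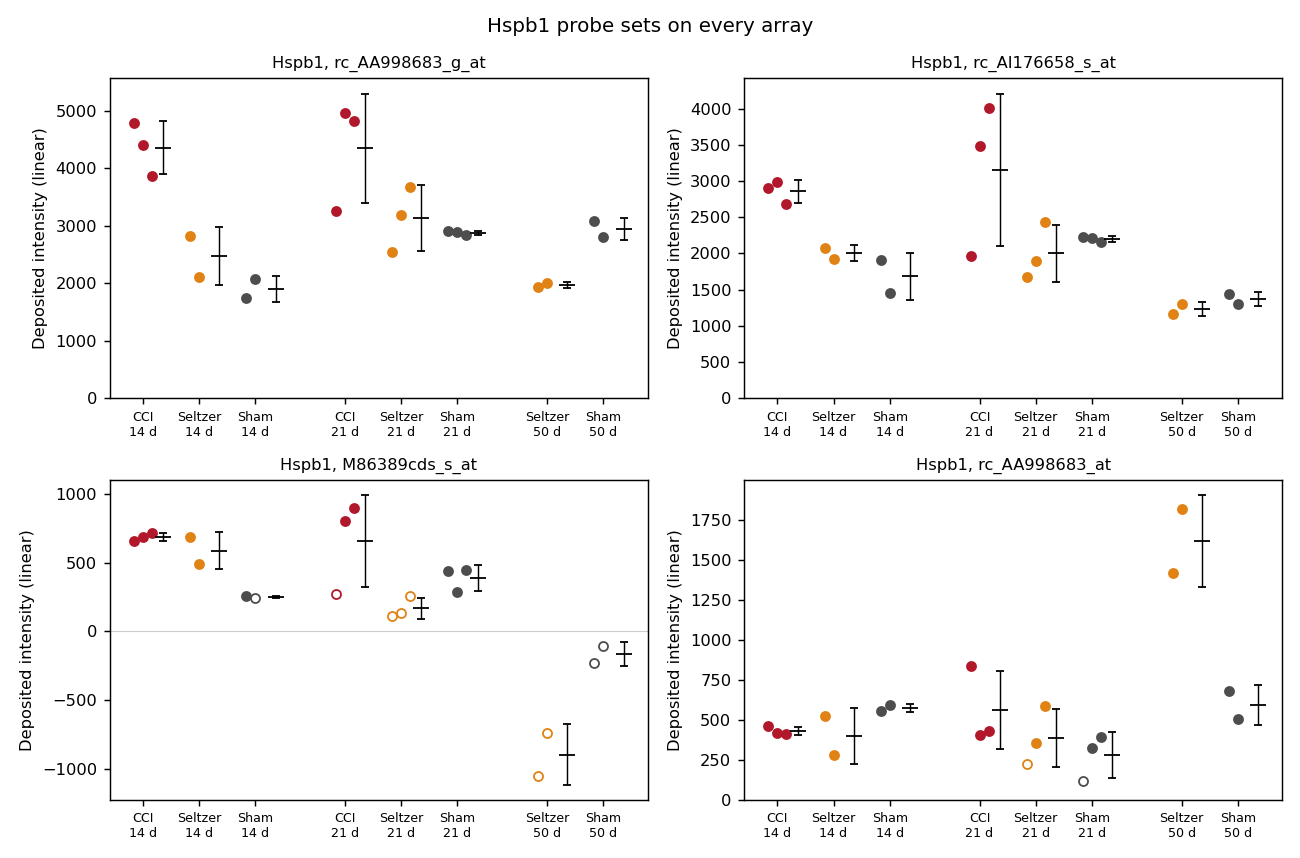
Deposited intensity (linear axis) of the 4 Hspb1 probe sets on each of the 20 arrays, by surgery and day. Filled points are above background and open points are not; black bars are the group mean and SD (n = 2 or 3). In the panel of rc_AA998683_g_at all CCI points lie above the sham points of their day, and in the panel of rc_AA998683_at the 50-day Seltzer points, 1414 and 1818, lie above all others.

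Averaged over 14 and 21 days, Hspb1 was 1.84-fold higher in CCI than in sham ganglia, a log2 change of 0.88 ± 0.13 (SE, 95% interval 0.60 to 1.16, limma, adjusted p = 0.00209). It was 2.29-fold higher at 14 days (log2 change 1.19, adjusted p = 0.00351), and at 21 days the ratio was 1.48 (0.57, adjusted p = 0.215). The change at 21 days minus that at 14 days was -0.62 (95% interval -1.18 to -0.06, adjusted p = 0.38). Without CCI 21-day replicate 1, the CCI array with the highest background level, the 21-day change was 0.76 (adjusted p = 0.0474). The call of the mean was lost with arrays centred on their median (0.86, adjusted p = 0.0727), and that at 14 days with the same centring (1.31, adjusted p = 0.0548) and without sham 14-day replicate 1 (1.07, adjusted p = 0.0596). The sham level itself differed between days, with both 14-day sham arrays below all 21-day sham arrays, and with the 21-day sham arrays as control at both days the CCI change was 0.58 for the mean (adjusted p = 0.13) and 0.59 at 14 days (adjusted p = 0.274).

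In Seltzer ganglia the mean ratio of Hspb1 to sham was 1.18, a log2 change of 0.23 (95% interval -0.06 to 0.53, adjusted p = 1), with 0.36 at 14 days and 0.11 at 21 days. At 50 days the log2 change was -0.58 (adjusted p = 0.0837). CCI exceeded Seltzer ganglia 1.57-fold, a log2 difference of 0.64 (95% interval 0.36 to 0.92, adjusted p = 0.0323). That difference kept its sign under each of 22 alternatives and passed the threshold in 10 of them. Losses came with median centring (0.59, adjusted p = 0.406), with the dimmest 33.3% of probe sets left out (adjusted p = 0.112), with only the groups compared (adjusted p = 0.178), with the replicate number as a block (0.63, adjusted p = 0.0725) and without the 50-day arrays (adjusted p = 0.0729). Leaving out 1 array lost it for 14-day CCI replicates 1 and 2, 21-day CCI replicates 2 and 3, 14-day Seltzer replicate 2 and 21-day Seltzer replicates 1 and 2 (0.54 to 0.65). Both models were set against the same sham arrays, so their changes from sham are not independent.

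Ordered by group mean, Hspb1 stood at 4356 ± 463 in 14-day CCI and 4349 ± 950.0 in 21-day CCI (SD, n = 3 each), ranges that overlapped. Then came 21-day Seltzer at 3133.5 ± 570.1 (SD, n = 3), 50-day sham at 2945 ± 189 (SD, n = 2) and 21-day sham at 2877.5 ± 34.4 (SD, n = 3), which could not be ordered beyond their spread. The next mean, of 14-day Seltzer, was 2469 ± 509 (SD, n = 2), and its arrays overlapped those of 21-day Seltzer and 50-day sham. Lowest were 50-day Seltzer at 1969.7 ± 47.4 and 14-day sham at 1903 ± 228 (SD, n = 2 each), which overlapped each other.

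The other Hspb1 probe sets did not all follow it. The second brightest, rc_AI176658_s_at, read 2907, 2993 and 2678 in 14-day CCI, 2080.4 and 1923 in Seltzer and 1912.5 and 1450.5 in sham ganglia, and 1971.5, 3481 and 4008 in 21-day CCI, 1675, 1896 and 2434 in Seltzer and 2231.5, 2213 and 2159.8 in sham ganglia. The CCI arrays lay above sham at 14 days, and at 21 days all but replicate 1 did. Its mean CCI change was 0.61 (limma, adjusted p = 0.0762), and 0.77 without that array (adjusted p = 0.00132). M86389cds_s_at had a mean CCI change of 0.99 (adjusted p = 0.116), 1.26 without the same array (adjusted p = 0.00329), and was negative on all 50-day arrays. The dimmer rc_AA998683_at, whose name gives the same source sequence as the brightest, read 411 to 458 in 14-day CCI and 556 and 592 in sham ganglia, with CCI below sham, and 407 to 838 in 21-day CCI and 116 to 392 in sham ganglia, with CCI above sham. Its mean CCI change was 0.32 (adjusted p = 0.829). Across the 20 arrays, which share group means and depth of signal, the log2 values of rc_AA998683_g_at correlated at r = 0.815 with rc_AI176658_s_at, 0.512 with M86389cds_s_at and -0.275 with rc_AA998683_at.

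The summed intensity of some cell type markers differed between injured and sham arrays, and that of others did not. For 5 Schwann cell markers it was 10320 to 13980 in 14-day CCI and 7633 to 12390 in sham arrays. At 21 days it was 14000 to 14920 and 11780 to 19980. The sums of 5 fibroblast and of 11 sensory neuron markers also overlapped between CCI and sham arrays at both days. The summed intensity of 6 macrophage markers was 4146 to 5191 in 14-day CCI, 3279 to 4331 in Seltzer and 1778 to 2091 in sham arrays. It was 3509 to 4422 in 21-day CCI, 2625 to 3062 in Seltzer and 1119 to 1678 in sham arrays. At these days it thus lay above sham in both models. At 50 days it was 943.6 to 1415 in Seltzer and 1003 to 1099 in sham arrays. Among these markers Aif1, Csf1r and Itgam were above background on no array. The sum of 6 satellite glia markers was 5546 to 5821 in 14-day CCI, 4254 to 4316 in Seltzer and 3766 to 4544 in sham arrays. It was 4816 to 5466 in 21-day CCI, 4551 to 6261 in Seltzer and 6093 to 6387 in sham arrays. Of these markers Kcnj10, Gja1 and Slc1a3 were above background on no array and Fabp7 on 1. The muscle and satellite glia sums were above sham in CCI at 14 days and below it at 21 days. The part of any of these cell types in the Hspb1 change was not tested.

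None of the other 4 genes rose with Hspb1. Over the mean of 14 and 21 days, 1 of 13 member probe sets passed the threshold as higher in CCI than in sham ganglia (Hspb1) and 1 as lower (Hspe1), against 1.19% of all probe sets called higher, 1.1% lower and 2.29% in either direction. At 14 days the same 2 passed, against 1.35% higher, 1.43% lower and 2.78% in either direction, and at 21 days none did by limma, against 0.927% of all probe sets called. An unadjusted p under 0.05 was found for 7 of 13 in the mean, where 10.7% of all probe sets had one, for 4 at 14 days (10.6%) and for 5 at 21 days (12.3%). The median of the 13 over both days was a log2 change of -0.26, against 0.00 over all probe sets. Negative values were set to 0, so a probe set negative on every array compared has a change of 0. Such probe sets can hold the overall median at 0.00, which is thus an unsure reference for the members. Of the 9 probe sets outside Hspb1, which belong to 4 genes, 8 had a change below 0. Among these 9, AA108277_at and S63521_r_at were above background on no array, S63521_i_at on 4 and rc_AI170613_g_at on 10. By count 53.5% of all probe sets were below 0, a share that includes changes too small to tell from 0. In Seltzer ganglia none of the 13 passed (limma), against 0.297% of all probe sets called, and none had an unadjusted p under 0.05, against 4.77% of all. None passed at 14 or 21 days alone either, against 0.206% and 0.378% of all probe sets called, with 1 at an unadjusted p under 0.05 at each day, against 3.78% and 6.6% of all. CCI minus Seltzer passed for 1 upward (Hspb1) and 1 downward (Hspe1) of 13, against 0.481% of all probe sets higher, 0.446% lower and 0.927% in either direction.

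**Figure D2:**
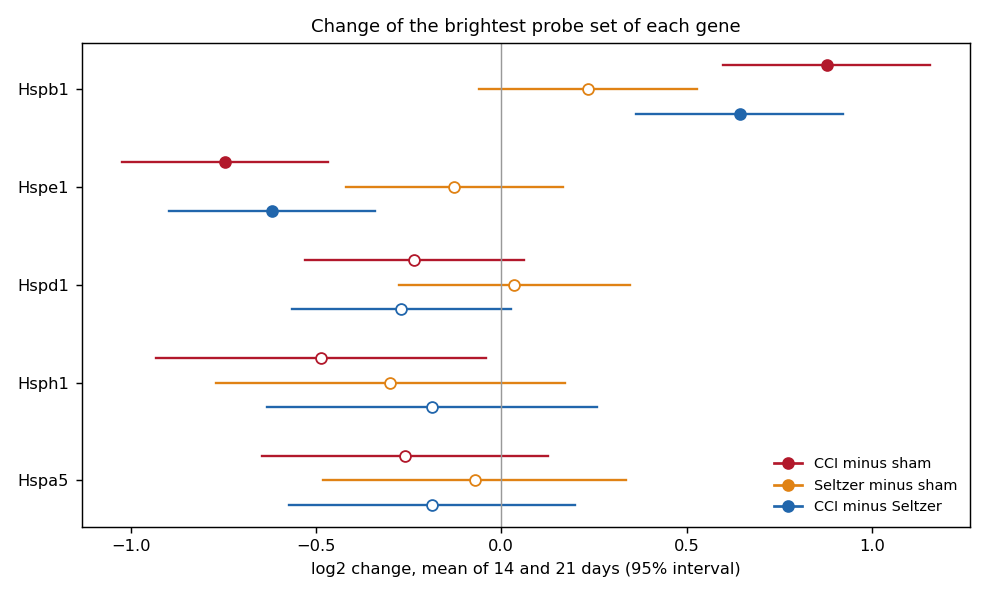
Log2 change of the brightest probe set of each gene, mean of 14 and 21 days, for CCI minus sham, Seltzer minus sham and CCI minus Seltzer, with 95% intervals from limma. Filled points passed an adjusted p of 0.05; Hspb1 at 0.88 and Hspe1 at -0.75 stand on opposite sides of 0 in CCI minus sham.

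Hspe1, the lid of the mitochondrial chaperonin, was lower in CCI ganglia at 14 days. Its brighter probe set, rc_AI170613_at, read 346, 319 and 326 in 14-day CCI, 725 and 748 in Seltzer and 783 and 961 in sham ganglia. At 21 days it read 254, 289 and 268 in CCI, 364, 346 and 201 in Seltzer and 301, 291 and 305 in sham ganglia. At 50 days it read 591 and 455 in Seltzer and 772 and 825 in sham ganglia. The 14-day Seltzer, 14-day sham and 50-day sham arrays read highest, at 725 or more, while the 14-day CCI arrays lay within the range of all 21-day arrays. All 14-day CCI arrays lay below all 14-day sham arrays, as for 23.3% of all probe sets.

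The 14-day CCI level was 2.63-fold below sham, a log2 change of -1.35 (95% interval -1.77 to -0.94, limma, adjusted p = 0.0013). At 21 days the change was -0.14 (adjusted p = 0.793), and the difference between days, 1.21, passed (95% interval 0.66 to 1.77, adjusted p = 0.0306), where 1.8% of all probe sets did and 0.915% did upward. The mean over days was -0.75 (adjusted p = 0.00627), and -0.77 with arrays centred on their median (adjusted p = 0.0566). These calls rest on the 14-day sham arrays: with the 21-day sham arrays as control at both days, the 14-day CCI change was 0.14 (adjusted p = 1), the mean was -0.0016, and the 14-day Seltzer change became 1.26 (adjusted p = 0.00214), against -0.23 with sham of its own day. CCI minus Seltzer was -0.62 (adjusted p = 0.0395), a call that held in 4 of 22 alternatives and not with the replicate number as a block (-0.59, adjusted p = 0.0722), which also took the call between days (1.15, adjusted p = 0.0586). The call between days held in 8 of 22 alternatives; it was lost with quantile normalization (1.00, adjusted p = 0.205), with median centring (0.92, adjusted p = 0.362), without the dimmest 33.3% of probe sets (adjusted p = 0.104), without the 50-day arrays (adjusted p = 0.0507) and with any of 9 single arrays left out (1.07 to 1.24). The second probe set, rc_AI170613_g_at, named for the same source sequence, did not show the pattern, but was above background on only 10 of 20 arrays. It read 267 to 328 in 14-day CCI, 282 and 294 in Seltzer and 234 and 304.5 in sham ganglia, with all groups overlapping. Its log2 values correlated at r = 0.14 with those of the first over 20 arrays. So near background, it can say little about the pattern of the first.

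**Figure D3:**
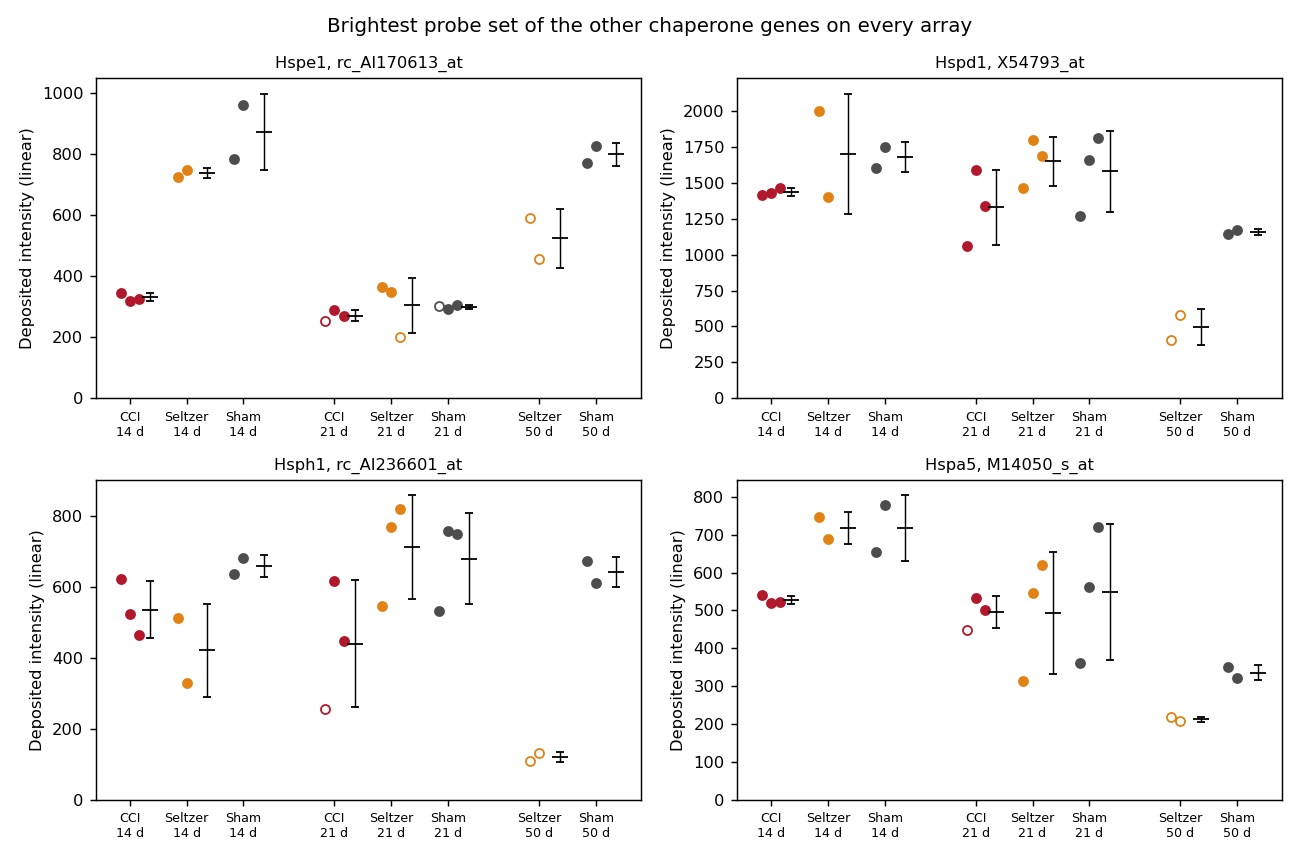
Deposited intensity (linear axis) of the brightest probe set of Hspe1, Hspd1, Hsph1 and Hspa5 on each of the 20 arrays, by surgery and day. Filled points are above background and open points are not; black bars are the group mean and SD (n = 2 or 3). Hspe1 is high on the 14-day Seltzer and sham and the 50-day sham arrays, and in all 4 panels the 50-day Seltzer points lie below the 50-day sham points.

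Hspd1, the chamber that Hspe1 closes, was also lower in CCI than in sham ganglia on average, by changes that did not pass the threshold. X54793_at read 1418, 1431 and 1468 in 14-day CCI, 2000.4 and 1405 in Seltzer and 1606 and 1753 in sham ganglia. At 21 days it read 1063, 1589 and 1339 in CCI, 1465, 1799.9 and 1688 in Seltzer and 1271, 1658 and 1816 in sham ganglia. CCI lay below sham on every array at 14 days, as for 23.3% of all probe sets, and overlapped it at 21 days. The mean CCI change was -0.23 (95% interval -0.53 to 0.06, adjusted p = 0.607) and the mean Seltzer change 0.04 (-0.28 to 0.35, adjusted p = 1). The second probe set, rc_AA858640_s_at, read 603.8 to 785.6 in 14-day CCI and 899.0 to 975.9 in sham ganglia. At 21 days it read 478.0 to 799.7 and 819.8 to 946.1. It changed by -0.47 in CCI (limma, adjusted p = 0.152, and 0.0448 without CCI 21-day replicate 2) and -0.17 in Seltzer ganglia. It correlated with the first at r = 0.919 over 20 arrays.

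Hsph1, the nucleotide exchange factor, read 623, 523 and 464 in 14-day CCI, 514 and 329 in Seltzer and 638 and 681 in sham ganglia on rc_AI236601_at. At 21 days it read 257, 616 and 448 in CCI, 545.5, 770.1 and 821 in Seltzer and 532, 758 and 751 in sham ganglia. The injured arrays of both surgeries lay below sham at 14 days, as CCI did for 23.3% and Seltzer for 17.7% of all probe sets. All groups overlapped at 21 days. The mean CCI change was -0.49 (95% interval -0.93 to -0.04, adjusted p = 0.395), and the mean Seltzer change was -0.30 (-0.77 to 0.17, adjusted p = 1). Its second probe set, AA108277_at, was above background on none of the 20 arrays.

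Hspa5, the chaperone of the endoplasmic reticulum, read 541, 520.0 and 522 in 14-day CCI, 747.5 and 687.5 in Seltzer and 655 and 778 in sham ganglia on M14050_s_at. At 21 days it read 449, 533 and 502 in CCI, 313, 546 and 619.8 in Seltzer and 361, 563 and 719.8 in sham ganglia. CCI lay below sham at 14 days without overlap, as for 23.3% of all probe sets, and the 21-day groups overlapped. The mean CCI change was -0.26 (95% interval -0.65 to 0.13, adjusted p = 0.708), and -0.36 without the 21-day replicate 1 arrays of every surgery (adjusted p = 0.0322). In Seltzer ganglia the mean change was -0.07 (-0.48 to 0.34, adjusted p = 1). Of its other probe sets, S63521_r_at was above background on no array and S63521_i_at on 4. Those 4 were the 14-day Seltzer arrays, at 377 and 399, and the 14-day sham arrays, at 333 and 380.4, while the 14-day CCI arrays read 107 to 122, the order also seen for Hspe1. The 14-day level of S63521_i_at in CCI was at least 1.77-fold below sham, with an adjusted p of 0.619 (limma), and 0.0132 with only the groups compared. With a floor of 200 the adjusted p was 3.54e-08. That floor sets every array except those 4 to the same value and so removes the spread, and this p is no measure of the change.

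Within an array, the log2 value of Hspb1 (rc_AA998683_g_at) minus that of each other gene's brightest probe set was compared between groups, which removes the scaling of arrays; the size of such a value within 1 group carries no meaning, since probe sets differ in brightness. Hspb1 minus Hspd1 was 1.39 to 1.75 in 14-day CCI, 0.50 and 0.58 in Seltzer and 0.12 and 0.23 in sham ganglia, and 1.60 to 1.84, 0.79 to 1.12 and 0.64 to 1.18 in CCI, Seltzer and sham ganglia of 21 days. CCI thus lay above sham by 1.41 at 14 days and 0.82 at 21 days. At 14 days the CCI minus sham difference was 2.54 against Hspe1, 1.49 against Hsph1 and 1.61 against Hspa5, with no overlap for any of the 4 genes.

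At 21 days it was 0.71 against Hspe1 and 1.24 against Hsph1 without overlap, as for Hspd1, and 0.66 against Hspa5 with overlap. On CCI 21-day replicate 1 Hspe1, Hsph1 and Hspa5 were not above background, nor was Hspe1 on sham 21-day replicate 1, so these 3 differences rest partly on values that are only bounds. All 4 share the same Hspb1 values. Set against 1702 other probe sets above background on at least 10 arrays, Hspb1 gained without overlap on 86.1% at 14 days (median difference 1.16) and 41.9% at 21 days (0.54), so its separation from the chaperones at 14 days was the common case. In Seltzer ganglia the differences from sham were 0.36 to 1.02 without overlap at 14 days, where 48.2% of the other probe sets gave the same, and 0.04 to 0.26 with overlap at 21 days. At 50 days they were 1.7 for Hsph1 and 0.66 for Hspd1 without overlap and 0.03 for Hspe1 and 0.05 for Hspa5 with overlap, where none of the 4 genes was above background on the Seltzer arrays. Against the 1702 other probe sets, Hspb1 gained without overlap on 25.0% at 50 days and lost without overlap on 52.7% (median difference -0.36). A difference between genes shows unequal change and not which gene moved.

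**Figure D4:**
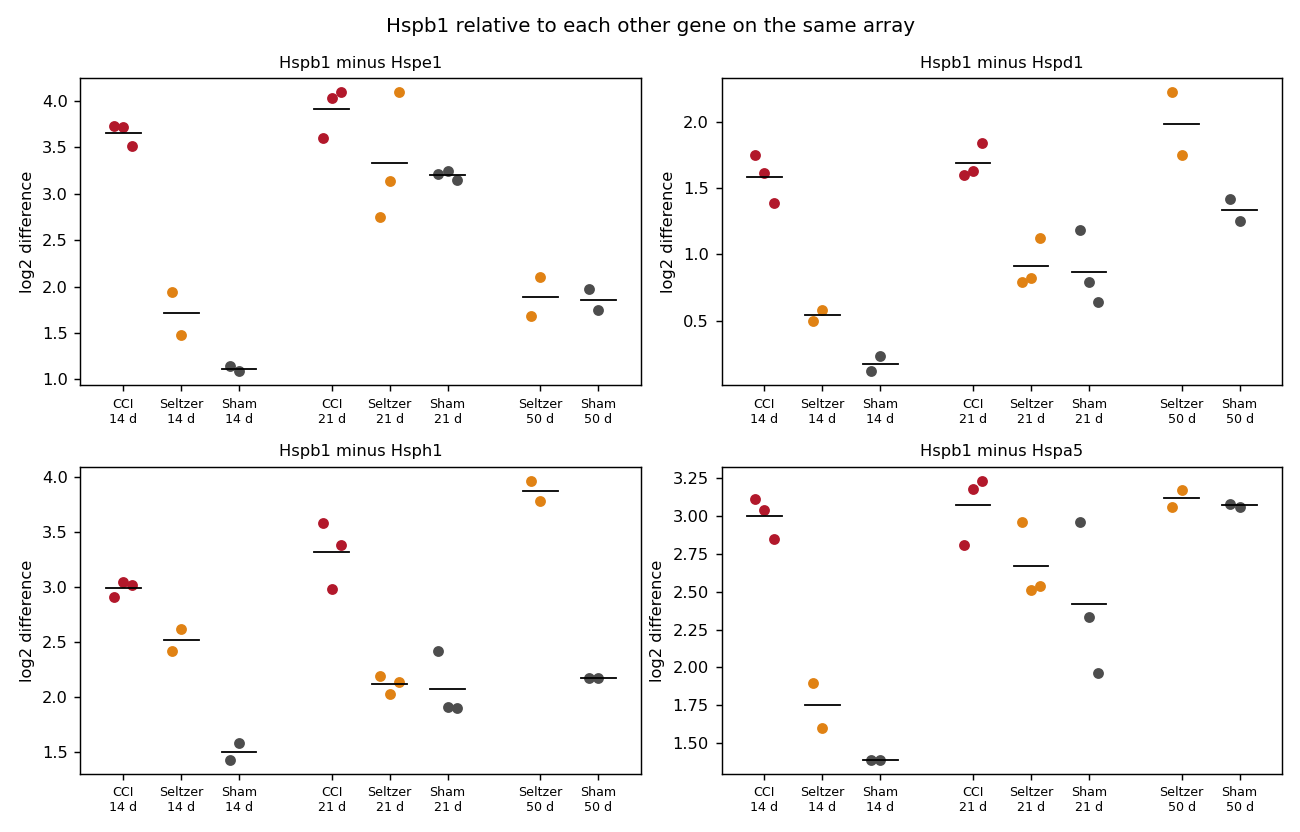
Log2 intensity of Hspb1 (rc_AA998683_g_at) minus that of the brightest probe set of Hspe1, Hspd1, Hsph1 and Hspa5 on the same array, by surgery and day; points are arrays and black lines group means. At 14 days the CCI points lie above the sham points in all 4 panels, and at 21 days in those of Hspe1, Hspd1 and Hsph1.

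At 50 days, where there was no CCI group, 4 member probe sets passed as lower in Seltzer than in sham ganglia and none as higher, against 7.2% of all probe sets lower, 8.72% higher and 15.9% in either direction (limma). Hspd1 (X54793_at) read 404 and 583 in Seltzer and 1143 and 1171 in sham ganglia, a log2 change of -1.23 (adjusted p = 0.00274, and 0.109 with only the groups compared). Its second probe set changed by -1.01 (adjusted p = 0.0117, lost with only the groups compared, at 0.189, and without Seltzer 50-day replicate 1, at 0.113, or sham 50-day replicate 1, at 0.0741). Hsph1 (rc_AI236601_at) read 109.7 and 131 in Seltzer and 673 and 612 in sham ganglia, a change of -2.27 (adjusted p = 0.000662), which passed in all 13 alternatives run. The call of AA108277_at (adjusted p = 0.0167) rests on values above background on no array, and was lost in 6 of 13 alternatives: with a floor of 200, where nothing was left of the change, with quantile normalization (adjusted p = 0.118), with only the groups compared (0.0825), and without Seltzer replicate 1 (0.0558) or 2 (0.0832) or sham replicate 2 (0.125). Hspe1, Hspd1, Hsph1 and Hspa5 were above background on neither 50-day Seltzer array, and on both 50-day sham arrays, in their brightest probe sets. The high background level and GAPDH ratio of these 2 arrays move with the result, and their part in it was not tested; only for Hspd1, at least 1.71-fold, and Hspe1, at least 1.18-fold, among the 4 did the sham level exceed the Seltzer arrays' background level.

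Of 42 genes of the wider chaperone network measured besides the members, 1 passed as higher and 2 as lower in CCI ganglia over the mean of 14 and 21 days, with a median log2 change of -0.20 against 0.00 over all probe sets, against 2.29% of all probe sets called. An unadjusted p under 0.05 was found for 8 of the 42, against 10.7% of all probe sets, and 29 of the 42 changes were below 0. By count 53.5% of all probe sets were below 0, but their median change was 0.00. That share thus includes changes too small to tell from 0. The median includes probe sets negative on every array compared, whose change is 0. Both are unsure references. In Seltzer ganglia none passed, against 0.297% of all, and 4 had an unadjusted p under 0.05, against 4.77% of all. None of the 13 chaperones and stress genes of the endoplasmic reticulum, the 4 other small heat shock proteins or the 4 other mitochondrial chaperones passed in CCI ganglia. Of the 42, Hspa1a, Hspa1l, Hspa2, Hspa9, Dnaja3, Pdia2, Pdia4, Serpinh1, Ddit3, Trib3, Hmox1 and Stip1 were above background on no array. Others were so on few, such as Hspb2 on 1 and Hspb6 on 3. This low signal limits the median, the count below 0 and the lack of calls. Hsp90ab1 and Hsp90b1, the Hsp90 proteins of the cytosol and the endoplasmic reticulum, changed by 0.21 (adjusted p = 0.792) and 0.15 (adjusted p = 0.801). Cryab, the small heat shock protein alphaB-crystallin, changed by -0.28 (adjusted p = 0.511).

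The gene that passed as higher was Sod1, the cytosolic superoxide dismutase, with a mean change of 0.79 (limma, adjusted p = 0.0205). The rise was at 14 days only. Its CCI change at 21 days minus that at 14 days passed as below 0 (limma), where 1.8% of all probe sets passed in either direction. Sod1 had 3 probe sets, of which the brightest is given. Its mean intensity was 1793 ± 53.2 (SD, n = 3) in 14-day CCI, 446 ± 19.1 (SD, n = 2) in Seltzer and 380.4 ± 106 (SD, n = 2) in sham ganglia, and 1496 ± 385 (SD, n = 3) in 21-day CCI, 1622 ± 306 (SD, n = 3) in Seltzer and 2282 ± 101 (SD, n = 3) in sham ganglia. The 14-day CCI mean was again near those of the 21-day groups and far from the other 14-day groups, as for Hspe1 in the opposite sense. The 2 lower genes were Chordc1, an Hsp90 partner, by -0.39 (adjusted p = 0.048), above background on 4 arrays, and Stip1, which links Hsp70 to Hsp90, by -1.06 (adjusted p = 0.0313), above background on none. At 50 days 1 of 42 network genes passed as higher and 7 as lower in Seltzer ganglia, against 8.72% and 7.2% of all probe sets, on the Seltzer arrays with the high background level.

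The genes whose log2 values ran most like Hspb1 over the 20 arrays were Rack1 (r = 0.847), Rps16 (0.81), Actb (0.796), Rpl36 (0.768) and Psmb4 (0.767), which encode a ribosome-bound scaffold, ribosomal proteins, beta-actin and a proteasome subunit. Over the 8 group means r was 0.885, 0.869, 0.833, 0.839 and 0.812. For Hspe1 they were Gstt2 (0.897), Ywhae (0.838) and Dgkh (0.83), for Hspd1 Pi4ka (0.957), Psma7 (0.947) and Sqle (0.946), for Hsph1 Ndufb10 (0.925), Pip5k1c (0.91) and Napa (0.909), and for Hspa5 Psmc5 (0.921), Pygb (0.92) and Pi4ka (0.913). Arrays share group means and the low 50-day Seltzer signal, so these values describe likeness of profile only. Hspb1 itself correlated with the other genes' brightest probe sets at -0.653 for Hspe1, 0.34 for Hspd1, 0.373 for Hsph1 and 0.204 for Hspa5.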

How the data were processed

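Total RNA of 20 dorsal root ganglion samples was read on 1 array each. The authors deposited 1 linear intensity per probe set and array, many of them below 0, and their software, background step and scaling between arrays are not stated here. Of 8799 probe sets, 59 array controls were left out, and 8740 were tested. The number and brightness of arrays, not read depth, limit the precision.

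Negative values became 0, and log2(value + 16) was fitted with a mean for each of the 8 groups by the lmFit and eBayes functions of limma 3.58.1 under R 4.3.3, with 12 residual degrees of freedom shared by all groups. Tests were two-sided, with Benjamini-Hochberg adjustment over all 8740 probe sets of a comparison and a threshold of 0.05. Folds are ratios of geometric mean intensities with values under 16 set to 16. Where 1 group was above background on no array, the fold is the other group's level over that background level, written "at least", and none is given where that is under 1. The fit was tested on simulated data. Figures were drawn with Python 3.11.15, pandas 2.3.3 and matplotlib 3.10.9.

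Gene symbols are those of the platform annotation (7006 probe sets with 1 symbol, 308 with several, 1426 with none), and a gene's brightest probe set is that with the highest mean over all arrays. The genes most like a member were the 3 (5 for Hspb1) with the highest Pearson correlation among probe sets of 1 symbol above background on at least 10 arrays. Promoter sequences came from RefSeq. The members, the chaperone network list and the markers were chosen with earlier results of these data known.

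Replicate numbers were checked as pairs. Deviations from the group mean correlated at 0.299, 0.226 and 0.11 between same-numbered Seltzer and sham arrays at 21 days. Whether these arrays were paired was not tested, and the labels give no origin for a pairing. No other pair of groups with 3 shared numbers had all correlations over 0.1, though CCI and sham at 21 days came near it (0.0606, 0.0881 and 0.0931). The main fit took no account of this likeness between same-numbered arrays. The replicate block gave each replicate number 1 effect shared by all groups and days, so it did not model a pairing of these arrays alone. Alternatives covered the number added, a floor, scaling, filters, the fit, the control arrays and each array left out in turn. Leaving out the 21-day replicate 1 arrays together was chosen after seeing the data.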

Additional observations from a re-analysis of the deposited data

Results flagged for a closer look

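Differences between models or days passed a test of the difference itself for 2 member genes. Of all probe sets, 0.927% passed for CCI minus Seltzer and 1.8% for the difference between CCI days (limma). The CCI minus Seltzer difference, mean of 14 and 21 days, was 0.64 for Hspb1 (rc_AA998683_g_at) and -0.62 for Hspe1 (rc_AI170613_at) on the log2 scale. The CCI change of Hspe1 at 21 days minus that at 14 days was 1.21. Of 22 alternatives, these calls held in 10 for Hspb1, in 4 for Hspe1 between models and in 8 for Hspe1 between days.

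For 6 probe sets, every Seltzer array lay on one side of the mean of the sham arrays at one day and every Seltzer array on the other side at another, as for 29.1% of all probe sets, and these differences between days were not tested. Between 14 and 50 days, the Seltzer changes of Hspb1 were 0.36 and -0.58 on rc_AA998683_g_at, 0.26 and -0.15 on rc_AI176658_s_at, and -0.57 and 1.43 on rc_AA998683_at. Hspe1 (rc_AI170613_g_at) changed by 0.10 at 14 days and -0.93 at 50 days, and Hspa5 (S63521_i_at) by 0.12 and -0.78. At 50 days neither of these 2 probe sets was above background on any Seltzer or sham array. Hspb1 on M86389cds_s_at changed by 1.16 at 14 days and -1.20 at 21 days, when it was above background on no Seltzer array. None of these single-day changes passed the threshold, and Seltzer and sham arrays overlapped at 14 days for rc_AI170613_g_at and S63521_i_at and at 50 days for rc_AI176658_s_at.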

How the results depend on the processing

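Over 117 member changes and their alternatives, 2184 values in all, 2091 kept their side of the threshold with no called value changing sign (109 values never called did), 61 lost a call, 30 gained one and 2 reversed. The 2 that reversed were Hspe1 (rc_AI170613_at) with the 21-day sham arrays as control at 14 days, at 0.14 in CCI and 1.26 in Seltzer ganglia; the 21-day sham level, which is lower than that of 14 days, makes this change by construction. The Hspb1 CCI change (0.88) lost its call with median centring (0.86) and with the 21-day sham arrays as control at both days (0.58), and ranged from 0.82 to 0.98 with single arrays left out. The Hspb1 CCI minus Seltzer difference (0.64) lost its call with median centring (0.59), the dimmest 33.3% left out (0.64), only the groups compared (0.64, adjusted p = 0.178), the replicate block (0.63, adjusted p = 0.0725) and without the 50-day arrays (0.64), and ranged from 0.54 to 0.75 with single arrays left out. The Hspe1 call between CCI days was lost in 14 of 22 alternatives. The block also took the calls of Hspe1 in CCI minus Seltzer (-0.59) and between days (1.15), and changed no other call of the brightest probe sets of Hspb1 and Hspe1; the causes were not tested.

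Counts of probe sets called moved more. The CCI mean, 200, became 114 with median centring, 131 without the dimmest 33.3%, 86 with the 21-day sham control and 394 without the 21-day replicate 1 arrays, and 147 to 264 with single arrays left out. CCI at 14 days, 243, became 146, 153 and 58 under the first 3 and 514 with only its groups (142 to 193). CCI at 21 days, 81, became 13 with only its groups (57 to 99). The Seltzer mean, 26, became 16 with centring, 15 with only its groups, 142 with the 21-day sham control, 383 with 50 days added and 63 without the 21-day replicate 1 arrays (22 to 61). Seltzer at 14 days, 18, became 36 with a floor of 200, 5 with centring, 7 without the dimmest 33.3%, 269 with the 21-day sham control and 0 with only its groups by limma, where 752 had an unadjusted p under 0.05 (16 to 56). Seltzer at 21 days, 33, became 21 with the floor, 9 with centring, 9 without the dimmest 33.3%, 20 without the 50-day arrays and 0 with only its groups by limma, where 461 had an unadjusted p under 0.05 (19 to 56). Seltzer at 50 days, 1391, became 841 with only its groups (660 to 984). CCI minus Seltzer, 81, became 132 with the floor, 43 with centring, 50 without the dimmest 33.3% and 278 without the 21-day replicate 1 arrays (62 to 152). The difference between CCI days, 157, became 91 with centring and 257 without those arrays (118 to 177). Median centring moved the median of all probe sets by 0.12 in CCI at 14 days, -0.17 at 21 days and -0.34 in Seltzer at 50 days, where 762 higher and 629 lower calls became 431 and 775 (458 and 776 after quantile normalization). With centring, 18 higher and 8 lower calls of the Seltzer mean became 15 and 1, 42 and 39 of CCI minus Seltzer became 17 and 26, and 80 and 77 of the difference between CCI days became 33 and 58. Signal near background limits M86389cds_s_at, rc_AI170613_g_at, AA108277_at, S63521_i_at and S63521_r_at.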
